A study of Mus musculus with 60 samples.

Results

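The genes described here are 10 genes of the integrated stress response, chosen by symbol: Eif2ak1, Atf4, Atf5, Ddit3, Trib3, Chac1, Sesn2, Nupr1, Fgf21 and Gdf15. They are 10 of the 22893 genes that appear in at least 1 of 5 mouse RNA-seq tables, and each was found in all 5 tables. The study asks how heme synthesis bears on brown fat, with 60 libraries. A time course (experiment 1, with 12 groups of 3) followed 3 kinds of preadipocytes at days 0, 2, 4 and 6 of adipogenic differentiation: the B9 line of immortalized brown cells, primary brown cells (pBAT) and primary white cells (pWAT). A drug experiment (experiment 2, with 4 groups of 4) treated differentiating pBAT cells: HASA (10 µM HA with 1 mM SA), SA (1 mM), HA (10 µM) and Vehicle. SA is read here as succinylacetone, an inhibitor of the heme synthesis enzyme ALAD, and HA as heme-arginate, a form of heme that cells take up; the labels give only the letters. The treated day and duration were not given in the sources used here. All cultured cells were wild type. A tissue experiment (experiment 3) took whole brown fat from 4 BAKO and 4 WT female mice, with 1 library per animal.

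Several features limit these groups as models. B9 is a single immortalized line, and the primary cells came from newborn pups. The labels do not say whether libraries of the same group in experiments 1 and 2 came from separate cultures, so their p-values measure the spread between these libraries, which may be technical. BAKO is a genotype that the labels leave unexpanded, and its Cre driver and the age of the mice were not given in the sources used here. In the B9 table the columns of days 2, 4 and 6, and not those of day 0, carry a letter R that no label explains, so that mark cannot be told apart from the day.

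Heme is a direct regulator of the integrated stress response. HRI, the kinase encoded by Eif2ak1, is held inactive by bound heme, and when heme is short, or when the mitochondrial protein DELE1 reaches the cytosol, it phosphorylates the translation factor eIF2α. Most translation then slows, while the mRNA of Atf4 and a few others is translated better, and the transcription factor ATF4 with its partners turns on genes of amino acid supply, redox balance and cell fate. In brown fat, mitochondrial stress is known to raise the release of 2 hormones of this pathway, FGF21 and GDF15. RNA levels show neither the activity of HRI nor the amount of ATF4 protein.

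A motif that ATF4 is known to bind together with C/EBP proteins, TGATGNAA, was searched on both strands of the RefSeq promoters (build GRCm38.p6, 250 bases before to 50 after each start site). It was present in 4 of the 10 genes, Chac1, Fgf21, Nupr1 and Trib3, and in 4.51% of 27025 genes with a promoter in that table. The form TGATGCAA, a special case of the same motif, was in 3 of the 10 and in 1.03% of all genes. The promoters of Eif2ak1, Atf4, Atf5, Ddit3, Sesn2 and Gdf15 held no match in this window, which says only that these letters are not there. The stretches around the 4 matches are shown because these genes are the ones followed below as targets; capitals mark the match, which in all 4 reads as its reverse complement along the gene's strand. The match began 193 bases before the start site in Chac1 (chr2:119350993-119351112, plus strand), 139 before it in Fgf21 (chr7:45615566-45615685, minus strand), 110 before it in Nupr1 (chr7:126625517-126625636, minus strand) and at position 15 after it in Trib3 (chr2:152344028-152344057, minus strand).
Chac1: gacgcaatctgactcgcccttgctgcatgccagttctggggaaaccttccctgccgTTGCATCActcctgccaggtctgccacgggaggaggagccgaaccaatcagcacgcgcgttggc
Fgf21: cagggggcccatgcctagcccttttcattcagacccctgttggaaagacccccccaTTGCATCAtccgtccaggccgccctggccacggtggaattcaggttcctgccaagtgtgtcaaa
Nupr1: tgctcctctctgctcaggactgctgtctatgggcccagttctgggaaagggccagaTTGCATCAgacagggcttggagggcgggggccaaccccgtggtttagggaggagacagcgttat
Trib3: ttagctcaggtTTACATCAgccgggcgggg

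All values below are deposited log2 values, and each difference is on that log2 scale with its standard error from limma, followed by the p-value adjusted over all genes tested in the table; a gene was called at an adjusted p under 0.05. The lowest values vary little on this scale, so changes of low genes may be understated; how far this touches Fgf21 is not known. The 5 tables were scaled separately, so no test was made between cell types. As a check of the labels, Alas1, the initial enzyme of heme synthesis, had 10.15, 10.18, 10.45 and 10.61 in BAKO fat, against 12.79, 12.90, 12.73 and 12.97 in WT fat (-2.50, SE 0.113, adjusted p = 1.34e-05). In experiment 2 it averaged 12.47 ± 0.0703 in HASA, 13.72 ± 0.0691 in SA, 12.10 ± 0.08 in HA and 12.42 ± 0.0596 in Vehicle libraries (SD, n = 4). Ucp1, the defining brown fat protein, reached 7.85 in B9 and 6.91 in pBAT time courses and 15.98 to 16.89 in tissue, and lay between -0.96 and -0.68 in every pWAT library, near the bottom of the scale. In the list of 10 brown adipocyte markers, Cidea (0.82 to 1.35) and Otop1 (0.84 to 1.26) also stayed low in every pWAT library. They reached 6.33 and 7.32 in B9 and 9.23 and 4.31 in pBAT libraries. The markers tested in pWAT cells did not part the cell types this way. All markers of the list that were tested were called higher at day 6 than at day 0: 9 in B9 (median change 4.69), 10 in pBAT (4.00) and 6 in pWAT cells (4.12). Among all genes 40.5%, 38.3% and 35.3% were called higher. Genes with a highest group mean under 4 were not tested. Cox8b, for example, ranged from 2.07 to 5.90 in B9 libraries, and so passed only through its higher days. Calls of such markers are no independent support. Ucp1, Cidea, Otop1 and Dio2 (1.31 to 2.03) were too low to be tested in pWAT cells. Dio2 stayed between -0.06 and 0.44 in B9 and reached 6.59 in pBAT libraries.

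During differentiation most of the 10 genes were lower at day 2 than at day 0, and several then climbed far above day 0 in the 2 brown cell types. By day 6 Trib3 was 5.58-fold higher than at day 0 in B9 cells and 4.04-fold higher in pBAT cells, and Ddit3 was 5.21-fold and 2.85-fold higher. In pWAT cells neither gene passed the test at day 6. Eif2ak1 did not share the dip and was higher at day 2 in all 3 cell types. Sesn2 (0.20) and Fgf21 (0.49) were also higher then in B9 cells, and in pWAT cells Atf5, Sesn2 and Fgf21 were not called.

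Eif2ak1, the kinase gene, had log2 values of 10.19, 10.24 and 10.30 at day 0, 10.75, 10.80 and 10.85 at day 2, 10.60, 10.48 and 10.46 at day 4 and 10.41, 10.45 and 10.45 at day 6 in B9 cells. In pBAT cells it had 10.12, 10.00 and 10.02 at day 0, 10.50, 10.42 and 10.37 at day 2, 10.89, 10.59 and 10.79 at day 4 and 10.65, 10.66 and 10.57 at day 6. In pWAT cells the values were 10.02, 10.09 and 10.04, then 10.69, 10.64 and 10.54, then 10.49, 10.48 and 10.43, and at day 6 10.51, 10.62 and 10.30. No day 0 library reached any later library of the same cell type. The rise at day 2 was 0.56 (SE 0.055, adjusted p = 4.66e-07) in B9, 0.39 (SE 0.0766, adjusted p = 0.000424) in pBAT and 0.58 (SE 0.0837, adjusted p = 4.39e-05) in pWAT cells. At day 6 it was still 0.19 (adjusted p = 0.00575), 0.58 (adjusted p = 5.4e-06) and 0.43 (adjusted p = 0.000347) above day 0 in the same order of cell types, which is 1.14-fold, 1.5-fold and 1.35-fold.

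Atf4 encodes the central transcription factor. In B9 cells it had 12.86, 12.94 and 12.87 at day 0, 12.70, 12.72 and 12.78 at day 2, 13.20, 13.23 and 13.31 at day 4 and 13.43, 13.42 and 13.39 at day 6, with no overlap between any later day and day 0. The B9 changes were -0.16 at day 2 (adjusted p = 0.00559) and 0.52 at day 6 (SE 0.0435, adjusted p = 4.48e-08); under quantile normalization the day 2 value was 0.033 and was not called. pBAT cells were lower at day 2, by -0.72 (SE 0.0504, adjusted p = 7.59e-09), and at day 6 differed from day 0 by -0.024 (adjusted p = 0.679). pWAT cells had lower Atf4 on every later day, with 12.63, 12.53 and 12.52 at day 6, against 13.14, 13.13 and 13.06 at day 0 (-0.55, SE 0.0611, adjusted p = 1.39e-06).

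Atf5, a related factor whose translation is controlled in a similar way, fell at day 2 by 1.07 in B9 cells (adjusted p = 5.43e-10) and by 1.14 in pBAT cells (adjusted p = 6.69e-09). At day 6 it was above day 0 in all 3 cell types, by 0.93 in B9 (adjusted p = 1.57e-09), 0.58 in pBAT (adjusted p = 8.39e-06) and 0.34 in pWAT cells (adjusted p = 0.00734). The pWAT day 2 libraries, at 13.73, 13.74 and 13.66, lay inside the day 0 range of 13.58 to 13.93.

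Ddit3 encodes CHOP, a transcription factor that ATF4 induces and that is linked to cell death under long stress. In B9 cells it had 9.50, 9.79 and 9.46 at day 0, 8.80, 8.84 and 8.77 at day 2, 10.28, 10.39 and 10.32 at day 4 and 11.89, 12.05 and 11.95 at day 6. In pBAT cells it had 9.67, 9.83 and 9.63 at day 0, 8.25, 7.99 and 8.18 at day 2, 9.58, 9.47 and 9.52 at day 4 and 11.07, 11.26 and 11.32 at day 6. Both brown cell types thus ended with every day 6 library above every other library of the course. The day 6 change from day 0 was 2.38 (SE 0.0791, adjusted p = 1.18e-12) in B9 and 1.51 (SE 0.0891, adjusted p = 5.23e-10) in pBAT cells. In pWAT cells Ddit3 had 10.24, 10.32 and 10.14 at day 0, 9.42, 9.67 and 9.44 at day 2, 9.89, 9.84 and 10.03 at day 4 and 10.12, 10.11 and 9.87 at day 6; the day 6 difference was -0.20 (SE 0.0988, adjusted p = 0.0865), and it was called lower with median centring (-0.26) or quantile normalization (-0.24). In the GENCODE M21 annotation Ddit3 overlaps another gene model of the same name, and the genes Mars and Gm4189 on the other strand, at its edges. How the counting treated such reads was not given in the sources used here.

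Trib3, a pseudokinase that CHOP and ATF4 induce and that feeds back on both, had the largest swing of the 10 genes in both brown cell types. B9 libraries had 9.39, 9.75 and 9.73 at day 0, 7.47, 7.64 and 7.30 at day 2, 10.70, 10.62 and 10.86 at day 4 and 12.04, 12.21 and 12.06 at day 6. pBAT libraries had 10.15, 10.12 and 10.37 at day 0, 7.72, 7.08 and 7.05 at day 2, 10.68, 10.75 and 10.66 at day 4 and 12.31, 12.12 and 12.24 at day 6. Day 6 exceeded day 2 by 4.63 (SE 0.107, adjusted p = 8.42e-14) in B9 and 4.94 (SE 0.138, adjusted p = 3.08e-13) in pBAT cells. In pWAT cells Trib3 had 10.98, 11.03 and 10.85 at day 0, 9.26, 9.20 and 9.62 at day 2, 10.69, 10.57 and 10.34 at day 4 and 11.18, 11.14 and 10.69 at day 6. It climbed by 1.65 there after day 2 (SE 0.139, adjusted p = 1.26e-07) and ended 0.051 from day 0 (adjusted p = 0.756).

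Chac1, whose product degrades glutathione, took a separate course in each cell type. B9 cells dipped by -1.37 at day 2 (SE 0.0878, adjusted p = 3.89e-09) and ended with 9.33, 9.46 and 9.41 at day 6, overlapping the 9.01, 9.35 and 9.19 of day 0. In pBAT cells it had 9.32, 9.31 and 9.26 at day 0, 6.41, 5.77 and 5.77 at day 2, 7.32, 7.35 and 7.36 at day 4 and 7.59, 8.19 and 7.85 at day 6, which left it 2.68-fold lower than at day 0 (-1.42, SE 0.171, adjusted p = 2.12e-06). In pWAT cells it was between 6.90 and 7.29 at day 6, against 9.61, 9.66 and 9.65 at day 0, and was 5.97-fold lower (-2.58, SE 0.142, adjusted p = 5.52e-10).

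Nupr1, a small stress-induced chromatin protein, dipped at day 2 by 0.64 in B9, 1.16 in pBAT and 0.80 in pWAT cells and was higher than at day 0 on day 6 in all 3. The day 6 values were 10.60, 10.73 and 10.78 in B9, against 9.25, 9.29 and 9.01 at day 0 (1.52, SE 0.0819, adjusted p = 2.88e-10). They were 11.21, 11.42 and 11.45 in pBAT, against 10.42, 10.42 and 10.35 at day 0 (0.97, SE 0.0802, adjusted p = 3.08e-08). In pWAT cells the day 6 change was 0.70 (SE 0.0917, adjusted p = 7.51e-06). Sesn2, a brake on mTORC1 under amino acid shortage, parted the B9 line from the primary cells: at day 6 it was 0.69 above day 0 in B9 (adjusted p = 1.91e-08), and 0.49 below it in pBAT (-0.49, adjusted p = 1.11e-05) and 0.41 below it in pWAT cells (-0.41, adjusted p = 0.000662).

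The 2 hormone genes also differed by cell type. Fgf21 stood at 3.20, 3.17 and 2.97 at day 0 and 3.65, 3.73 and 3.43 at day 2 in B9 cells, then at 6.56, 6.33 and 6.43 at day 4 and 6.67, 6.68 and 6.70 at day 6. That is a rise of 3.57 by day 6 (SE 0.133, adjusted p = 4.46e-12). It passed the filter on low values in B9 only through days 4 and 6, so it had to differ. In the primary cells its day 6 difference from day 0 was -0.10 in pBAT (adjusted p = 0.634) and 0.12 in pWAT (adjusted p = 0.659), and no pBAT or pWAT library exceeded 5.07. Gdf15 dipped at day 4 in pBAT cells to 7.08, 6.70 and 7.02, against 8.93, 9.14 and 9.06 at day 0 (-2.11, SE 0.159, adjusted p = 1.07e-08), and its day 6 values of 8.35, 9.04 and 8.99 overlapped day 0. B9 cells shared a dip and return of Gdf15. Their difference from day 0 was -1.16 at day 2 (adjusted p = 4.26e-07) and -0.73 at day 4 (adjusted p = 3.69e-05). At day 6 it was 0.25 and not called (adjusted p = 0.0536). In pWAT cells it was lower at day 6, at 7.66, 7.37 and 7.24, against 8.23, 8.05 and 8.24 at day 0 (-0.75, SE 0.141, adjusted p = 0.000249).

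**Figure D1:**
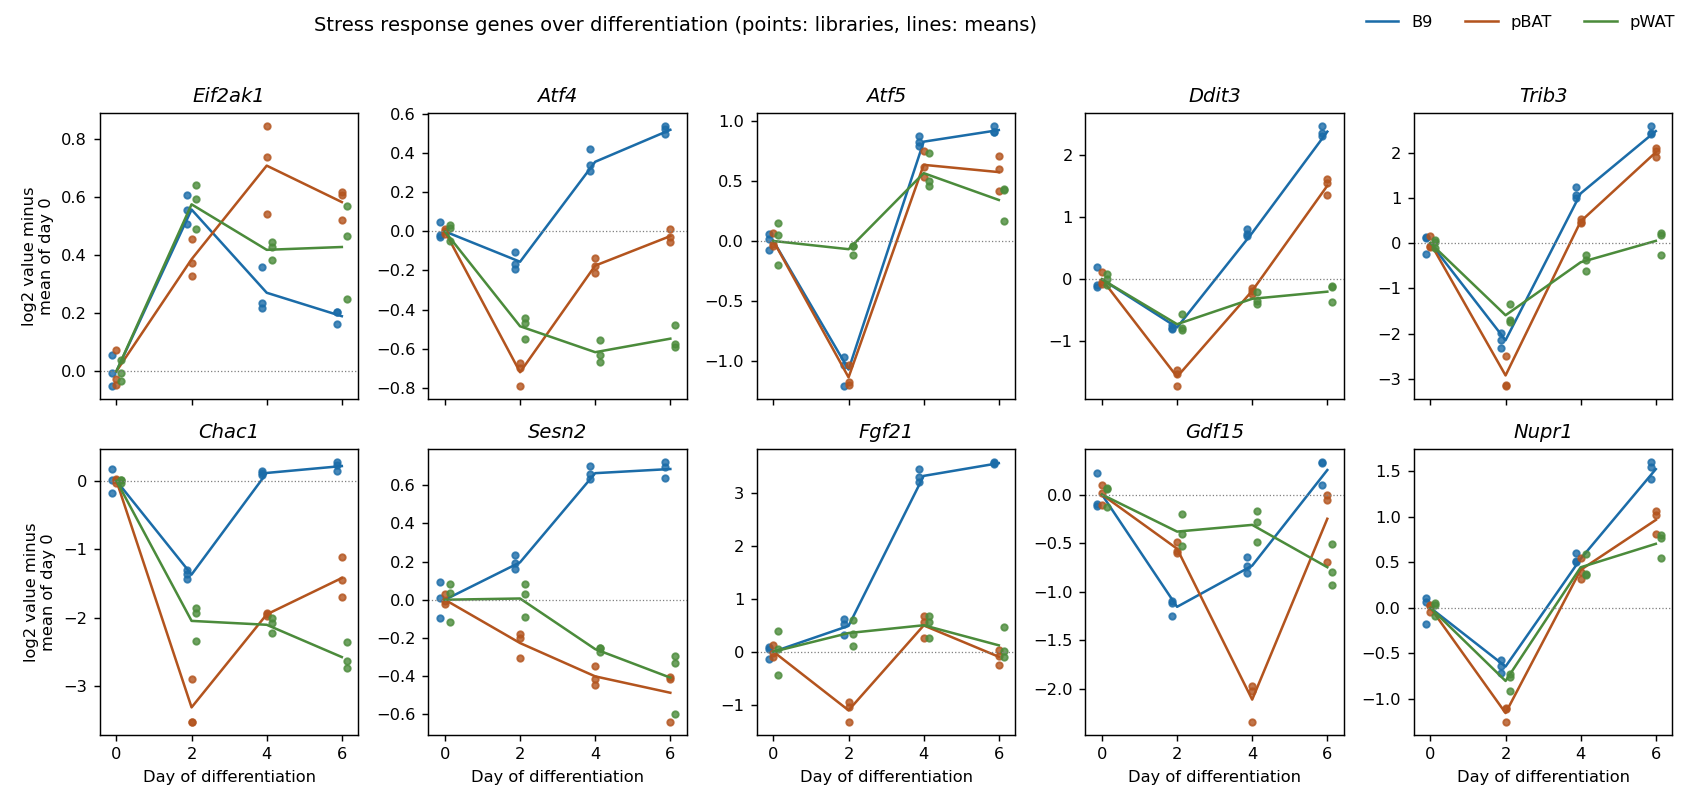
Log2 value of each gene in each library minus the mean of day 0 in the same cell type (vertical axis) against day of differentiation (horizontal axis); points are libraries, 3 per day and cell type, and lines join the means. Ddit3 and Trib3 end above 0 in B9 and pBAT cells and near 0 in pWAT cells, and Eif2ak1 is above 0 in all later libraries.

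Differentiation changed most genes, so these counts have a high background. In B9 cells 3 of the 10 genes were called higher and 7 lower at day 2, where 35.1% of the 12462 genes tested were called higher, 34% lower and 69.2% in either direction. At day 4 the counts were 8 higher and 1 lower, beside 37.6%, 37.3% and 74.9% of all genes. At day 6 they were 9 higher and 0 lower, beside 40.5%, 38.8% and 79.2%; the median change of the 10 genes was 0.81, and that of all genes 0.029. Without Fgf21, which had to differ, 7 of 9 were higher and 1 lower at day 4 (median 0.54), and 8 of 9 higher and 0 lower at day 6 (median 0.69). In pBAT cells the counts were 1 higher and 9 lower at day 2 (background 36.7% higher, 29.7% lower and 66.5% in either direction of 13144 genes), 5 and 4 at day 4 (36.4%, 37.1% and 73.5%) and 5 and 2 at day 6 (38.3%, 39.2% and 77.5%). The 9 lower at day 2 include Fgf21, which averaged 3.29 at day 2 and 4.40 at day 0. It passed the filter on low values only through days other than day 2, so its call there is no independent support. In pWAT cells they were 1 and 6 at day 2 (27.1%, 25.5% and 52.7% of 13057 genes), 3 and 5 at day 4 (32.8%, 32.8% and 65.7%) and 3 and 4 at day 6 (35.3%, 35.5% and 70.8%). Measured from day 2 instead of day 0, the day 6 libraries had 9 of the 10 genes higher in B9, 8 in pBAT and 4 in pWAT cells, beside 35.9%, 36% and 30.6% of all genes. The B9 and pBAT counts include Fgf21, which passed the filter on low values there only through days other than day 2. Its calls against day 2 are thus no independent support. Most of the 10 genes had already been seen to dip at day 2, so counts measured from that day are not independent of the dip.

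Some of these calls turned on single libraries. The B9 day 6 call of Chac1 (0.22, adjusted p = 0.0362) was lost without day 0 library 1 (0.13) or 4 (0.22) or day 6 library 3 (0.19) or 4 (0.21), and Gdf15 gained a call there without day 0 library 2 (0.36) or day 6 library 3 (0.33); the pBAT day 4 call of Fgf21 (0.50, adjusted p = 0.0217) was lost without day 0 library 2 (0.44) or 4 (0.49) or day 4 library 1 (0.47) or 3 (0.41). In pWAT cells the day 2 call of Gdf15 (-0.38, adjusted p = 0.0342) was lost without day 0 library 1 (-0.35) or 4 (-0.35) or day 2 library 2 (-0.31) or 4 (-0.37), and at day 4 those of Ddit3 without day 0 library 2 or day 4 library 3 (-0.27 each), Trib3 without day 0 library 2 (-0.38) or day 4 library 4 (-0.32) and Sesn2 without day 0 library 1 (-0.24) or 2 (-0.22), while Fgf21 gained one without day 0 library 2 (0.69) and Gdf15 without day 4 library 4 (-0.39).

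Around these 10 genes, other parts of the response moved unevenly at day 6, when 40.5% of all genes were called higher and 38.8% lower in B9, 38.3% and 39.2% in pBAT, and 35.3% and 35.5% in pWAT cells. Of 32 other ATF4 target genes, mostly of amino acid synthesis and transport, 22 were called higher and 6 lower at day 6 in B9 cells, 12 and 20 in pBAT and 9 and 20 in pWAT cells. Slc1a5, a glutamine transporter, rose in all 3, by 2.56, 3.53 and 3.00 in B9, pBAT and pWAT cells, while Phgdh, an enzyme of serine synthesis, fell by 1.90 in pWAT cells. Of 21 genes of cytosolic tRNA synthetases and the tRNA exporter Xpot, most were lower at day 6: 12 in B9, 16 in pBAT and 18 in pWAT cells, with Nars at -1.28 in pBAT and -1.27 in pWAT. Mitochondrial chaperone and protease genes were mostly higher, 10 of 15 in B9, 12 in pBAT and 11 in pWAT cells; Dnaja3 rose by 2.04, 2.47 and 1.12. Of 21 genes of the unfolded protein response of the endoplasmic reticulum, 10 were higher and 10 lower in B9, 9 and 10 in pBAT and 7 and 13 in pWAT cells. Of 22 eIF2 pathway genes, 4 were higher and 14 lower in B9, 7 and 9 in pBAT and 5 and 11 in pWAT cells. Among these 22, Dele1, the HRI activator, rose by 0.81, 1.12 and 0.67. Ppp1r15a, whose product helps remove the phosphate from eIF2α, rose by 1.43 in B9 and 1.50 in pBAT cells, with 0.19 in pWAT cells (adjusted p = 0.41). The kinase gene Eif2ak4 (GCN2) fell in all 3 cell types, by 0.69, 0.46 and 0.86. Summed macrophage markers moved with the same days in primary cells, at 0.0222 to 0.0243% of the library at day 0 and 0.0829 to 0.105% at day 6 in pBAT, and 0.015 to 0.0161% and 0.13 to 0.148% in pWAT cells (11 of 13 and 13 of 14 tested markers higher). In B9 cells, where 9 of the 14 markers are listed, they summed to 0.00137 to 0.0016% at day 0 and 0.00106 to 0.00128% at day 6. Of these, Cd14 (6.00 to 7.70) and Cd68 (5.60 to 7.38) were the highest, and Fcgr1 and Marco were below 0 in every library. The part of such cells in these results was not tested. In such bulk libraries fewer cells of a type and less RNA per cell cannot be told apart.

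With SA, 7 of the 10 genes were called higher than with Vehicle in pBAT cells, all by less than 1.3-fold. Among all genes tested 20% were called higher and 41.4% in either direction. Sesn2 was 1.29-fold, Trib3 1.24-fold, Gdf15 1.21-fold, Nupr1 1.19-fold, Atf5 1.15-fold, Ddit3 1.12-fold and Atf4 1.08-fold higher than with Vehicle, and none of the 10 was called lower. Eif2ak1 and Chac1 did not pass the test. With HA added to SA, Ddit3 was below Vehicle, while the other 6 (Sesn2, Trib3, Gdf15, Nupr1, Atf5 and Atf4) and Fgf21 were called higher than with Vehicle.

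Eif2ak1 had 10.45, 10.38, 10.43 and 10.44 in HASA, 10.49, 10.42, 10.56 and 10.46 in SA, 10.47, 10.49, 10.44 and 10.55 in HA, and 10.57, 10.50, 10.49 and 10.50 in Vehicle libraries. The SA and Vehicle libraries overlapped, and their difference was -0.033 (95% confidence interval -0.11 to 0.043, adjusted p = 0.489). The HASA libraries all lay below the Vehicle libraries, by -0.091 (interval -0.17 to -0.014, adjusted p = 0.0509), which just missed the threshold and passed it (adjusted p = 0.0492) when only genes with a highest group mean of at least 6 were tested.

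Atf4 had 12.82, 12.79, 12.75 and 12.76 in HASA, 12.75, 12.75, 12.76 and 12.72 in SA, 12.87, 12.83, 12.89 and 12.81 in HA, and 12.59, 12.62, 12.67 and 12.65 in Vehicle libraries. Every treated library was above every Vehicle library. The difference from Vehicle was 0.15 (SE 0.0288, adjusted p = 0.000364) for HASA, 0.11 (adjusted p = 0.00418) for SA and 0.22 (adjusted p = 0.000106) for HA. Atf4 RNA was thus higher with HA alone too. Atf5 had 13.23, 13.30, 13.11 and 13.11 in HASA, 13.34, 13.19, 13.11 and 13.30 in SA, 13.18, 13.11, 13.04 and 13.13 in HA, and 13.03, 13.05, 13.01 and 13.04 in Vehicle libraries. It was higher than Vehicle with HASA (0.15, SE 0.0505, adjusted p = 0.0212) and SA (0.20, adjusted p = 0.00391), and not called with HA (0.08, adjusted p = 0.365).

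Ddit3 showed the clearest difference between SA alone and SA with HA. It had 12.27, 12.25, 12.24 and 12.19 in HASA, 12.50, 12.57, 12.70 and 12.46 in SA, 12.51, 12.67, 12.67 and 12.60 in HA, and 12.35, 12.34, 12.41 and 12.49 in Vehicle libraries. The 4 HASA libraries were the lowest of all 16. Ddit3 was higher with SA than with Vehicle (0.16, SE 0.0497, adjusted p = 0.0159) and higher with HA (0.21, adjusted p = 0.0121), but lower with both together (-0.16, adjusted p = 0.0146). HASA was also below SA by -0.32 (adjusted p = 0.000186) and below HA by -0.37 (adjusted p = 9.87e-06). The SA effect (HASA minus HA) with HA minus the SA effect without it (SA minus Vehicle) was -0.53 (SE 0.0703, adjusted p = 0.000358); this difference is called the interaction here.

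Trib3 had 13.20, 13.22, 13.08 and 13.13 in HASA, 13.29, 13.30, 13.36 and 13.34 in SA, 13.25, 13.27, 13.31 and 13.27 in HA, and 12.87, 13.01, 13.06 and 13.10 in Vehicle libraries. All SA and all HA libraries exceeded all Vehicle libraries, while HASA overlapped Vehicle. The difference from Vehicle was 0.15 (adjusted p = 0.0112) for HASA, 0.31 (SE 0.0438, adjusted p = 2e-05) for SA and 0.26 (adjusted p = 0.000942) for HA. The interaction was -0.43 (SE 0.0619, adjusted p = 0.000554).

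Chac1 rose with HA alone and not detectably with SA. It had 8.83, 8.83, 8.54 and 8.58 in HASA, 8.86, 8.87, 8.81 and 8.75 in SA, 9.21, 9.20, 9.00 and 9.22 in HA, and 8.85, 8.87, 8.90 and 8.74 in Vehicle libraries, so every HA library was above all 12 others. HA raised it by 0.32 over Vehicle (SE 0.0697, adjusted p = 0.0082), SA differed from Vehicle by -0.015 (interval -0.16 to 0.13, adjusted p = 0.878), and HASA was below HA by -0.46 (adjusted p = 3.88e-05). The interaction was -0.45 (SE 0.0986, adjusted p = 0.01), and for Atf4 it was -0.18 (SE 0.0407, adjusted p = 0.0106).

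Sesn2 and Gdf15 were higher than with Vehicle both with SA alone and with SA and HA. Sesn2 had 10.73, 10.85, 10.92 and 10.87 in HASA, 10.94, 10.92, 10.80 and 10.85 in SA, 10.53, 10.63, 10.68 and 10.70 in HA, and 10.52, 10.40, 10.59 and 10.53 in Vehicle libraries. All 8 libraries with SA were above all 8 without it, by 0.33 for HASA (SE 0.0505, adjusted p = 3.63e-05) and 0.37 for SA (adjusted p = 1.45e-05) over Vehicle; HASA and SA differed by -0.036 (interval -0.14 to 0.07, adjusted p = 0.65). Gdf15 had 9.37, 9.43, 9.32 and 9.43 in HASA, 9.59, 9.49, 9.31 and 9.34 in SA, 8.94, 9.00, 8.88 and 9.01 in HA, and 9.24, 9.13, 9.21 and 9.06 in Vehicle libraries. Again all 8 libraries with SA were above the other 8, by 0.23 (adjusted p = 0.00442) for HASA and 0.27 (SE 0.0598, adjusted p = 0.00133) for SA over Vehicle, while HA alone was 0.20 below Vehicle (-0.20, adjusted p = 0.0428). HASA exceeded HA by 0.43 (adjusted p = 1.48e-05), and the interaction of 0.16 did not pass the test (adjusted p = 0.277).

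Nupr1 had 11.73, 11.73, 11.75 and 11.83 in HASA, 11.79, 11.89, 12.01 and 11.76 in SA, 11.55, 11.79, 11.76 and 11.78 in HA, and 11.66, 11.59, 11.56 and 11.63 in Vehicle libraries. HASA and SA libraries were all above the Vehicle libraries, by 0.15 (adjusted p = 0.0418) and 0.25 (SE 0.0559, adjusted p = 0.00176), and HA was not called (0.11, adjusted p = 0.257). Fgf21 lay between 4.47 and 4.71 in all 16 libraries, low on this scale; HASA was above Vehicle by 0.17 (SE 0.0298, adjusted p = 0.000196), and SA (0.075, adjusted p = 0.0516) and HA (0.088, adjusted p = 0.0742) missed the threshold although neither overlapped Vehicle.

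**Figure D2:**
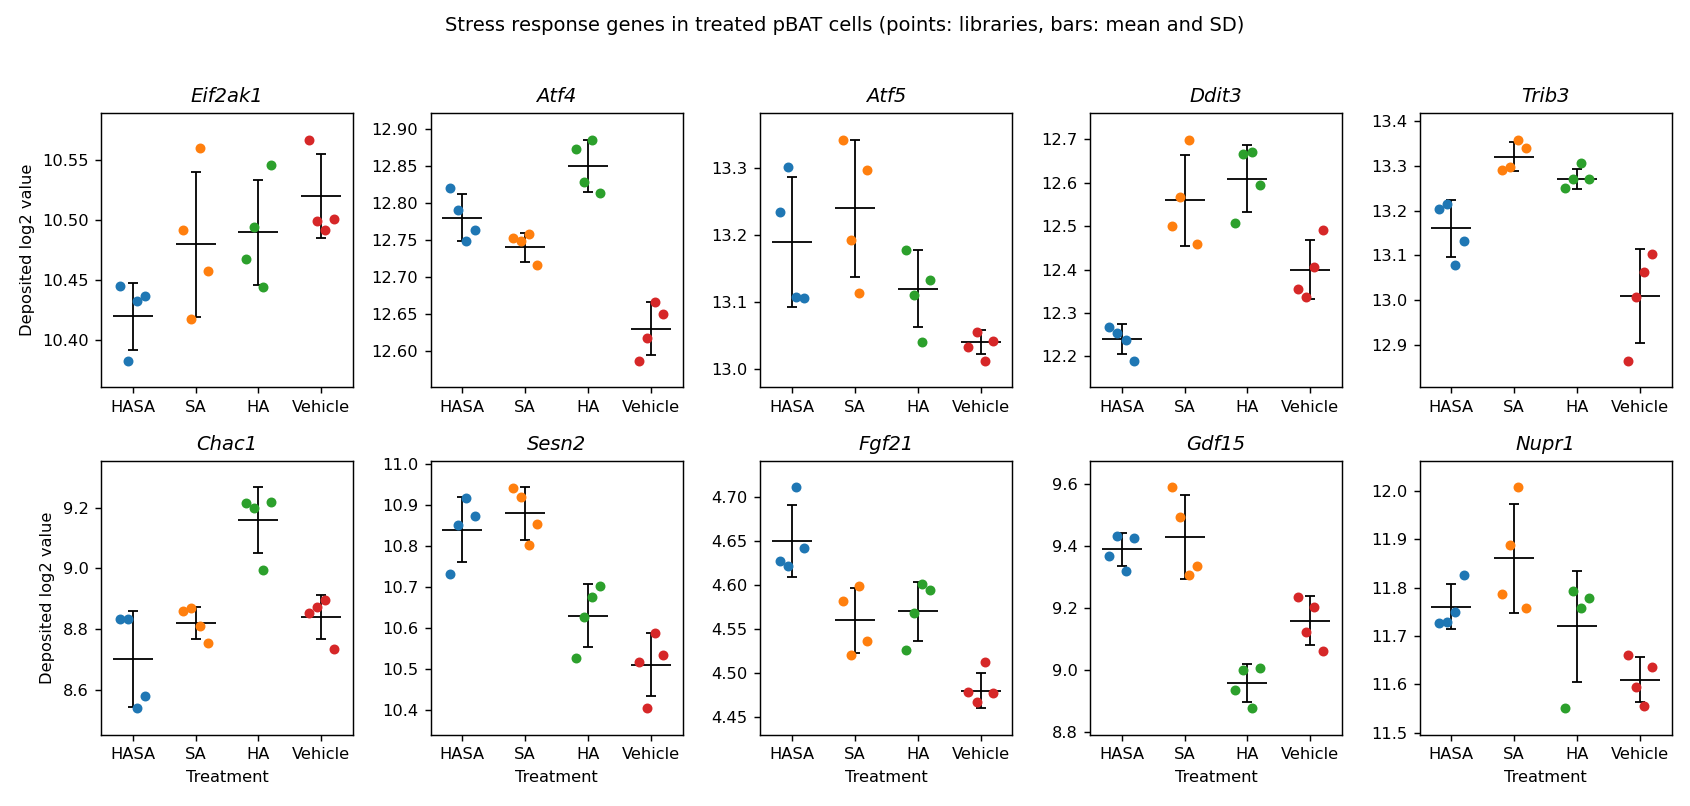
Deposited log2 value of each gene (vertical axis, a separate scale per gene) in the 4 treatment groups of pBAT cells (horizontal axis); points are the 4 libraries of a group, and bars are the mean and SD. HASA libraries are the lowest for Ddit3, HA libraries the highest for Chac1, and both groups with SA lie above both groups without it for Sesn2 and Gdf15.

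**Figure D3:**
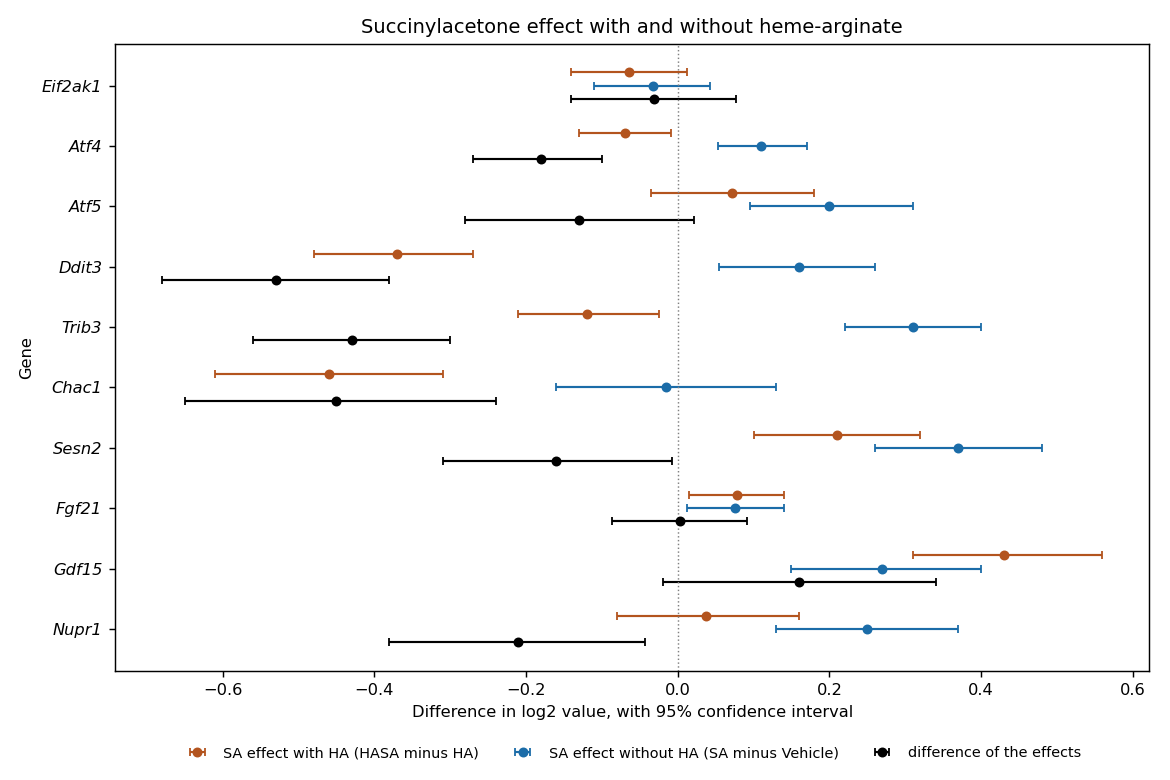
Difference in log2 value (horizontal axis) with its 95% confidence interval for each gene (vertical axis): HASA minus HA, SA minus Vehicle, and the difference between these effects. The difference lies between -0.53 and -0.18 for Atf4, Ddit3, Trib3 and Chac1, and its interval spans 0 for Eif2ak1, Atf5, Fgf21 and Gdf15. For Sesn2 (-0.16) and Nupr1 (-0.21) the interval, which is not adjusted for the number of genes, lies below 0, but the adjusted test was not passed.

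Counted over the 10 genes, SA against Vehicle had 7 higher and 0 lower, beside 20%, 21.4% and, in either direction, 41.4% of the 12799 genes tested; the median change of the 10 was 0.18 and that of all genes 0.0036. HASA against Vehicle had 7 higher and 1 lower, beside 20.9%, 23% and 43.9%. HA against Vehicle had 4 higher and 1 lower, beside 4.88%, 4.09% and 8.97%. HASA against SA had 1 higher and 2 lower, beside 12.4%, 12.3% and 24.7%, and HASA against HA 3 higher and 3 lower, beside 20.4%, 22.4% and 42.7%. The interaction had 0 higher and 4 lower, beside 3.88%, 3.79% and 7.67%. These comparisons share libraries, the Vehicle libraries among them, so their results are not independent of each other.

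Removing single libraries ended some of the smaller calls: Ddit3 for SA against Vehicle without SA 3 (0.11) or Vehicle 2 (0.14); Gdf15 for HA against Vehicle without any of 7 of the 8 libraries, Vehicle 4 excepted (-0.22 to -0.18), and also with no filter on low values (adjusted p = 0.0632), median centring (0.0537) or quantile normalization (0.055). For HASA against Vehicle, calls were lost for Atf5 without HASA 1 (0.14), HASA 2 (0.11) or Vehicle 3 (0.14), Ddit3 without Vehicle 4 (-0.13) and Nupr1 without any 1 library other than Vehicle 1 (0.12 to 0.16). For HASA against SA, Fgf21 (0.091) lost its call without SA 2 (0.078), SA 4 (0.084), HASA 3 (0.071) or HASA 4 (0.094), and for HASA against HA so did Trib3 (-0.12) without HA 2, 3 or 4 or HASA 3 or 4 (-0.12 to -0.091) or with quantile normalization (-0.06, adjusted p = 0.3), median centring (-0.10, adjusted p = 0.0767) or no trend (adjusted p = 0.052). Fgf21 (0.078) lost its call there without HA 1 or 2 or HASA 3 or 4 (0.058 to 0.081). Calls were gained without 1 library by Fgf21 for SA against Vehicle (SA 2, 0.088), Chac1 for HASA against Vehicle (HASA 1 or 2, -0.19 each), Atf4 for HASA against HA (HA 4, -0.081, or HASA 1, -0.082) and Nupr1 for the interaction (HA 1, -0.27); the interaction calls of Atf4, Ddit3, Trib3 and Chac1 held without each single library.

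The wider response to SA was mixed as well. Of the 32 ATF4 targets 13 were higher and 6 lower than with Vehicle, beside 20% and 21.4% of all genes; the cystine transporter gene Slc7a11 rose by 1.05 (SE 0.121, adjusted p = 2.01e-06), and Shmt2, of mitochondrial one-carbon metabolism, fell by 0.51 (SE 0.0401, adjusted p = 1.79e-08). With HASA, Slc7a11 was 2.14 above Vehicle (SE 0.121) and 1.08 above SA. Both eIF2α phosphatase subunit genes, Ppp1r15a (0.21, adjusted p = 0.000209) and Ppp1r15b (0.34, adjusted p = 2.23e-07), were higher with SA, with interactions of -0.30 (adjusted p = 0.00236) and -0.17 (adjusted p = 0.029). Of the other kinase genes Eif2ak2 (PKR) was 0.23 lower with SA (-0.23, adjusted p = 0.00415), while Eif2ak3 (PERK) and Eif2ak4 were not called. Dele1, the gene of the HRI activator, was not called with SA either. In the interaction, where 3.79% of all genes were called lower, 8 of 21 genes of the unfolded protein response of the endoplasmic reticulum were called, all lower, Herpud1 at -0.43 (adjusted p = 0.00224) and Atf6 at -0.28 (adjusted p = 0.00144) among them. The interaction also had 9 of 15 mitochondrial chaperone and protease genes lower, such as Hspa9 at -0.25 (adjusted p = 0.00181) and Lonp1 at -0.27 (adjusted p = 0.0022), and 4 of the 21 genes of tRNA synthetases and Xpot lower, such as Yars at -0.35 (adjusted p = 0.00141). Fewer were called in the other 2 lists. Of the 32 ATF4 targets 1 was called higher and 3 lower, and of 22 eIF2 pathway genes 0 and 2. Among all genes 3.88% were called higher and 7.67% in either direction.

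Markers of cell types moved with these treatments. The summed macrophage markers made up 0.0449 to 0.055% of the library in HASA, 0.0262 to 0.0282% in SA, 0.0432 to 0.0498% in HA and 0.0313 to 0.0361% in Vehicle cells; of 13 tested, 2 were higher and 8 lower with SA than with Vehicle, and the lowest of the list, Fcgr1, lay between 3.68 and 3.90. Summed brown adipocyte markers were 0.0313 to 0.0332% in HASA, 0.0357 to 0.038% in SA, 0.0616 to 0.0628% in HA and 0.0543 to 0.057% in Vehicle cells, with 6 of 9 tested lower with SA. Among all genes tested, 20% were called higher and 21.4% lower with SA than with Vehicle. Preadipocyte markers summed to 0.0421 to 0.0432% in HASA, 0.0342 to 0.0354% in SA, 0.05 to 0.0524% in HA and 0.0503 to 0.0532% in Vehicle cells. What these shifts contribute to the 10 genes was not tested. The gene whose values ran most closely with a member over the 16 libraries was sought among 10832 genes (10833 for Fgf21). It was Mtch2 for Eif2ak1 (Pearson r = 0.842), Hspa9 for Trib3 (0.915), Mxi1 for Ddit3 (0.913), Reep6 for Chac1 (0.961) and Banf1 for Atf4 (0.867). For the rest it was Gys1 for Sesn2 (0.946), mt-Co1 for Atf5 (0.913), Cfd for Gdf15 (0.936), Fxr1 for Nupr1 (0.872) and Hcls1 for Fgf21 (0.931). These are descriptions over libraries that share 4 treatments.

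In brown fat of BAKO mice, where Alas1 was 5.66-fold lower, Nupr1 was the only 1 of the 9 tested members to pass the test, at 1.56-fold the WT level. Trib3 had the larger difference, 2.18-fold, and just missed the threshold. Ddit3 and Chac1 were higher in every BAKO animal than in any WT animal without passing the test, so that 4 of the 9 did not overlap and were higher. For comparison, 357 of the 13497 genes tested, or 2.65%, did the same. Eif2ak1 showed no detectable difference.

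Eif2ak1 had 9.93, 10.09, 10.02 and 9.98 in BAKO animals 1, 2, 3 and 5, against 9.99, 10.02, 10.05 and 9.99 in WT animals 1, 3, 4 and 5. The groups overlapped fully, and the difference was -0.0066 (interval -0.16 to 0.15, adjusted p = 0.988). The other eIF2 kinase genes were not called either, with Eif2ak2 at 0.24 (adjusted p = 0.559) and Eif2ak3 at 0.16 (adjusted p = 0.68).

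Nupr1 had 9.86, 9.70, 9.71 and 9.86 in BAKO fat, against 9.19, 9.08, 9.00 and 9.28 in WT fat, a difference of 0.64 (SE 0.0871, adjusted p = 0.0381). Every BAKO animal was above every WT animal by a margin wider than the spread within either genotype. The call was nevertheless lost without any 1 of 7 of the 8 animals, WT 5 excepted, with differences of 0.60 to 0.67 and adjusted p of 0.0711 to 0.169, and with the library number as a replicate block (0.63, adjusted p = 0.0614).

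Trib3 had 9.73, 9.68, 9.72 and 10.36 in BAKO fat, against 8.65, 9.09, 8.75 and 8.50 in WT fat, a difference of 1.12 (SE 0.172, interval 0.74 to 1.51, adjusted p = 0.0596). No BAKO animal overlapped WT. Without BAKO 5, the highest animal, the difference was 0.96 and passed the threshold (adjusted p = 0.0439), as it did when only genes with a highest group mean of at least 6 were tested (1.12, adjusted p = 0.0447).

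Ddit3 had 9.52, 9.61, 9.58 and 10.50 in BAKO fat, against 9.13, 9.33, 9.47 and 9.34 in WT fat (0.49, SE 0.2, adjusted p = 0.526). Chac1 had 6.15, 6.11, 7.37 and 6.89 in BAKO fat, against 5.69, 5.96, 5.97 and 5.90 in WT fat (0.75, SE 0.253, adjusted p = 0.41). In both genes all BAKO animals were above all WT animals, and a few BAKO animals made up most of the difference. Gdf15 had 5.52, 5.00, 5.18 and 7.64 in BAKO fat, against 4.87, 4.81, 5.22 and 5.13 in WT fat (0.83, SE 0.486, adjusted p = 0.672), and all but BAKO 5 lay near the WT range.

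Atf4 had 11.07, 10.77, 10.94 and 11.62 in BAKO fat, against 10.86, 10.60, 10.91 and 10.61 in WT fat (0.35, SE 0.167, adjusted p = 0.602). Atf5 and Sesn2 also overlapped, with differences of 0.26 (adjusted p = 0.797) and 0.15 (adjusted p = 0.891). Fgf21 was low in every animal, at 3.08, 2.92, 3.19 and 3.39 in BAKO fat, against 2.97, 2.90, 2.90 and 2.89 in WT fat, and was left out of the test by the filter on low values. BAKO 5 thus held the highest value of Atf4, Ddit3, Trib3, Fgf21 and Gdf15 among all 8 animals.

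**Figure D4:**
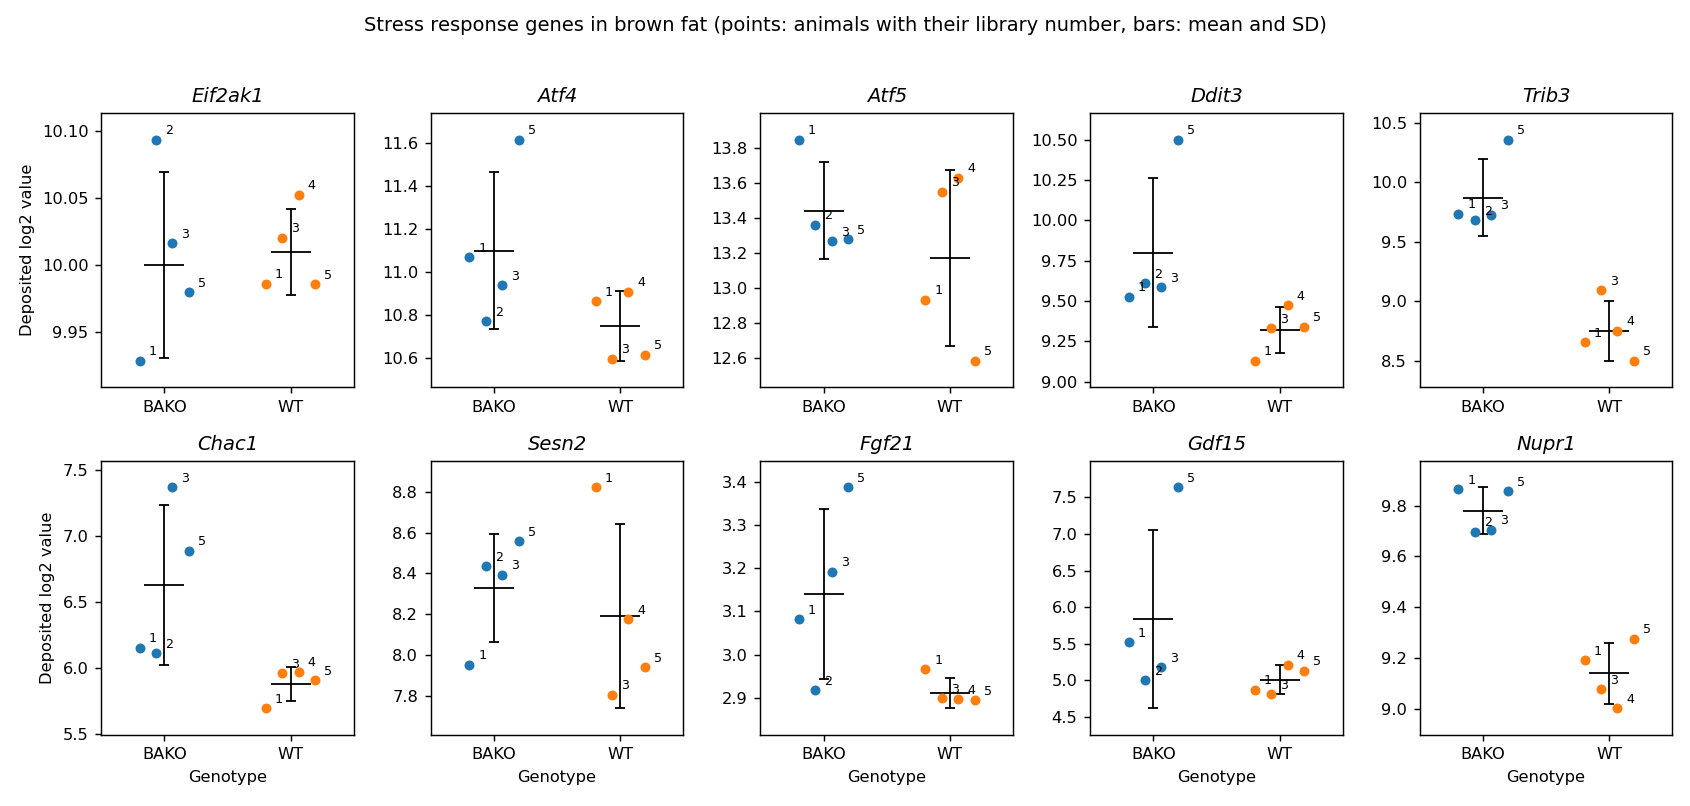
Deposited log2 value of each gene (vertical axis, a separate scale per gene) in BAKO and WT brown fat (horizontal axis); points are animals with their library number, and bars are the mean and SD of 4. Nupr1, Trib3, Ddit3 and Chac1 are higher in BAKO fat with no overlap between genotypes, as are 2.65% of all genes tested. Animal BAKO 5 stands above the other BAKO animals for Ddit3, Trib3, Atf4 and Gdf15.

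Few genes passed the test in tissue: 15 of 13497, or 0.111% (0.0519% higher and 0.0593% lower), while 1173 had an unadjusted p under 0.05. Among the 9 tested members 1 was called higher and 0 lower, 8 had a positive difference, and the median difference was 0.49 beside 0.0012 over all genes. None of the 31 tested ATF4 targets, 21 genes of tRNA synthetases and Xpot, 22 eIF2 pathway genes, 21 unfolded protein response genes or 15 mitochondrial chaperone and protease genes was called. A positive difference was seen in 25 of the 31 ATF4 targets, with a median of 0.23. This lean was not particular to them. In the other lists, in the same order, 16 of 21, 14 of 22, 20 of 21 and 5 of 15 were positive. So were 12 of 13 macrophage and 14 of 14 skeletal muscle markers. BAKO 5 also had the highest summed macrophage markers (0.0375%, against 0.0178 to 0.0285% in the other BAKO animals and 0.0146 to 0.0275% in WT animals; 0 of 13 tested markers called) and endothelial markers (0.112%, against 0.0622 to 0.0815% in the other BAKO animals and 0.054 to 0.0803% in WT animals). Summed adipocyte markers did not overlap between the genotypes, at 1.15 to 1.27% in BAKO and 1.33 to 1.52% in WT animals (2 of 10 with a positive difference, median -0.29, 0 called), and brown adipocyte markers did, at 0.53 to 0.728% in BAKO and 0.628 to 0.679% in WT animals. In BAKO 3, which had the highest Chac1, skeletal muscle markers summed to 0.424%, against 0.00185 to 0.00687% in the other BAKO animals and 0.00198 to 0.0231% in WT animals. The part of these cells in the results was not tested; without BAKO 3 and BAKO 5 the Nupr1 difference was 0.64 and was not called (adjusted p = 0.167).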

How the data were processed

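RNA-seq of mouse cells and brown fat was deposited as 5 gene tables: B9, pBAT and pWAT time courses, treated cells, and tissue. The deposited values are log2 values made by the authors: the lowest is -1.96 and the highest 21.28, with no whole numbers among them, and base 2 is inferred from the sums of 2 raised to the values, 18.0 to 29.9 M per library. Per the submitters' processing notes, kallisto, DESeq2 and the genome build GRCm39 were used, with versions and transform not given in the sources used here. Depth is unknown, so no counting error is given. The lowest values vary little: in experiment 2 genes averaging under 1 had a median SD of 0.00841, against 0.114 for those averaging 9 or more. Per the labels' protocols, experiments 1 and 2 used stranded mRNA libraries and experiment 3 poly-T beads.

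Gene symbols came from GENCODE M21 (99.63 to 99.77% of identifiers matched). Genes with a highest group mean of at least 4 were tested with limma 3.58.1 in R 4.3.3: a group-means model fitted to each whole table, moderated tests with a mean-variance trend, two-sided, Benjamini-Hochberg adjustment over all genes tested, a call at adjusted p under 0.05 and 95% intervals. The script was tested on simulated data. Library numbers were not used as pairs: of 14, 13, 13 and 24 same-numbered pairs in B9, pBAT, pWAT and experiment 2, only 0, 0, 2 and 7 had residual correlations over 0.1, and the tissue libraries are separate animals (2 of 3 same-numbered pairs over 0.1, from -0.0201 to 0.48). Alternatives were other filters, no trend, median centring, quantile normalization, 2 groups only, a replicate block, and leaving out each library.

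All 10 members are named, with up to 3 called genes of the smallest adjusted p per pathway list and comparison, and Alas1; a few further genes that act on HRI and eIF2α are given with them. The genes most like a member are those with the highest Pearson r over experiment 2 among genes with a highest group mean of at least 6. The members and lists were chosen with earlier results of these data known, so no count over them is independent support.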

Additional observations from a re-analysis of the deposited data

Results flagged for a closer look

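In 7 cases 1 library lay apart from the other 3 of its group, with a gap to its nearest neighbour that took up more of the group's range than Dixon's critical value for 4 values allows at the 95% level. The test was made on 60 groups of 4, and chance alone is expected to mark about 1 in 20 of them. Among the tissue libraries, BAKO 5 was apart for Ddit3 (10.50) and Trib3 (10.36), BAKO 1 was apart for Atf5 (13.84), all on the high side, and WT 1 was apart for Fgf21 (2.97, the highest of 4 low values). Among the treated cells, HA 3 was the low one for Chac1 (9.00), HA 1 the low one for Nupr1 (11.55) and Vehicle 1 the high one for Eif2ak1 (10.57).

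The effect of SA differed with and without HA for 4 genes by the limma interaction test: Ddit3 at -0.53, Chac1 at -0.45, Trib3 at -0.43 and Atf4 at -0.18 on the log2 scale. For Ddit3 the SA effect was -0.37 with HA and 0.16 without it, and for Trib3 -0.12 and 0.31; the Trib3 value with HA was -0.06 under quantile normalization and was then not called (adjusted p = 0.3).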

How the results depend on the processing

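Of 2262 values of the 10 genes under alternatives, 2122 kept their direction and side of the threshold, 83 lost a call, 26 gained one and 31 changed sign; the cause was not tested. The count of members called stayed within 1.5 times except for BAKO against WT: 2 with a highest group mean of at least 6, 0 with the replicate block, 0 without BAKO 3 and BAKO 5, and 0 to 1 without single animals. The replicate block also ended the calls of Nupr1 in BAKO fat (0.63, adjusted p = 0.0614), Chac1 at day 6 in B9 (0.15), Fgf21 at day 4 in pBAT (0.47), and Gdf15 at day 2 (-0.32) and Trib3 at day 4 (-0.32) in pWAT cells, and gave one to Fgf21 for SA against Vehicle (0.075). Among called values, the sign changed for Atf4 at day 2 in B9 with quantile normalization (0.033). Signs of uncalled values near 0 changed as follows. With median centring, Sesn2 at day 2 in pWAT was -0.026, Trib3 at day 6 in pWAT -0.0059, Chac1 for SA 0.0053 and the Fgf21 interaction -0.002. With quantile normalization, Fgf21 at day 6 in pWAT was -0.36, Chac1 for SA 0.0021, the Fgf21 interaction -0.008 and Eif2ak1 in BAKO 0.011. With the replicate block, Atf5 at day 2 in pWAT was 0.013. Without single libraries the ranges were -0.17 to 0.0064 for Atf5 and -0.051 to 0.055 for Sesn2 at day 2 in pWAT, -0.038 to 0.21 for Trib3 and -0.10 to 0.32 for Fgf21 at day 6 in pWAT, -0.05 to 0.0078 for Chac1 with SA, -0.062 to 0.0013 for Sesn2 and -0.085 to 0.0096 for Gdf15 in HASA against SA, -0.018 to 0.063 for Nupr1 in HASA against HA, -0.017 to 0.016 for the Fgf21 interaction, and -0.036 to 0.019 for Eif2ak1 in BAKO. Depth is unknown, which limits what the low values of Fgf21 can show.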
